A study of Homo sapiens with 12 samples.

Results

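The proteasome genes of LNCaP cells were taken as the protein-coding genes whose symbols start with PSMA, PSMB, PSMC, PSMD, PSME, PSMF or PSMG followed by a digit, without the interferon-inducible catalytic subunits PSMB8 and PSMB9. The letters selected 47 of the 63568 genes in the table. Of these, 45 encode subunits or assembly factors of the proteasome, namely 16 core, 22 regulatory and 7 assembly genes, and 43 were expressed highly enough to be tested (14 core, 22 regulatory and 7 assembly). The testis subunit PSMA8 was listed at 0 TPM in every library and the thymus subunit PSMB11 reached at most 0.03 TPM, so neither was tested. No line of the table was paired with the symbol PSMB3, a beta ring gene, and no value is given for it. The other 2 genes, PSMC3IP and PSME3IP1, carry the letters but encode no subunit, and are described apart at the end. A further 51 genes with these letters are not protein-coding, most of them processed pseudogenes such as those of PSMC1, and how reads shared with such copies were counted is not given in the sources used here.

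LNCaP is an androgen-responsive line derived from a lymph node metastasis of prostate cancer. Cells were transfected with either of 2 siRNAs against SMARCA4, which encodes BRG1, the ATPase of the SWI/SNF chromatin remodelling complex, or with a non-targeting control siRNA pool (si-NT). RNA was collected at 72 h, or at 144 h after the cells had been split and transfected again at 72 h, and no group carried any other treatment. Each siRNA and time point had 2 libraries, which gave 2 si-NT and 4 BRG1 depleted libraries at 72 h and the same at 144 h, 12 in all. The table numbers the SMARCA4 siRNAs 2 and 3 whereas the labels number them 1 and 2, and the labels of 1 depleted library at 72 h disagree on the siRNA, so the numbers of the table are used here and depleted libraries are listed with siRNA 2 before siRNA 3. The labels do not say that replicates were separate cultures, so the p-values measure the spread between these libraries, which may be technical. Both siRNAs form the depleted group of a time point, so its spread also holds any difference between them.

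SMARCA4 was at 97.01 and 73.4 TPM with si-NT at 72 h and at 21.7, 19.02, 17.5 and 19.1 TPM after depletion. At 144 h it was at 94.5 and 107 TPM with si-NT and at 15.9, 16.2, 11.4 and 17.4 TPM after depletion. Its log2 fold change was -2.07 (SE 0.16, adjusted p = 0.000538) at the earlier and -2.66 (SE 0.16, adjusted p = 1.01e-05) at the later time, and mRNA of the target remained in every depleted library. The markers of luminal prostate cells were present throughout, from KLK2 at 58.2 to 341 TPM to FOLH1 at 330.0 to 597 TPM, whereas PTPRC, KRT5 and TP63, which mark leukocytes and basal cells, did not exceed 0.13 TPM. COL1A1, a fibroblast collagen gene, was at 3.10 to 9.11 TPM. The ERCC spike-ins, RNAs of known amount added to each sample, took 0.805 to 1.97% of TPM per library. TPM (a transcript level scaled for gene length and library total) keeps no read depth, so the counting error is unknown.

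The proteasome is the protease that degrades ubiquitin-tagged proteins. Its core particle is a barrel of outer alpha rings, which gate entry, around inner beta rings, which hold the proteolytic sites. A regulatory particle on either end recognises ubiquitin in its lid and base, removes it and unfolds the substrate with a ring of ATPases, and dedicated chaperones assemble both particles. When proteasome activity falls, the transcription factor NFE2L1 is known to raise the subunit genes together.

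With si-NT, the members were strongly expressed genes. The median of their mean si-NT levels, over the 4 control libraries, was 122.7 TPM, against 11.3 TPM for the 16337 genes tested. It was 229.5 TPM for core genes, 112.5 TPM for regulatory genes and 72.6 TPM for assembly genes. PSMB4, a beta ring subunit, was the highest at 457 TPM on average (431 to 478 TPM over the libraries) and PSMG4, an assembly chaperone, the lowest at 13.2 TPM (12.2 to 14.03 TPM). Core particle genes were not all alike. Among beta ring genes, PSMB4 was followed by PSMB1 (342 TPM), PSMB6 (287 TPM), PSMB5 (215 TPM) and PSMB7 (197 TPM), and PSMB2 lay far below at 85.9 TPM. PSMB1 and PSMB6 did not overlap with each other over the si-NT libraries, whereas PSMB5 and PSMB7 did. The alpha ring genes ran from PSMA2 (159.9 TPM) to PSMA7 (366 TPM), and the middle 5, from PSMA3 to PSMA5, overlapped in their ranges. PSMB10, the inducible catalytic subunit that the selection kept, was the lowest core gene tested at 43.4 TPM. In the regulatory particle, PSMD2 (263 TPM) and PSMD8 (262 TPM) were the highest and overlapped, and the activator PSME4 was the lowest (41.7 TPM). Summed over the 45 genes, each library held 5977 to 7125 TPM of these transcripts.

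**Figure D1:**
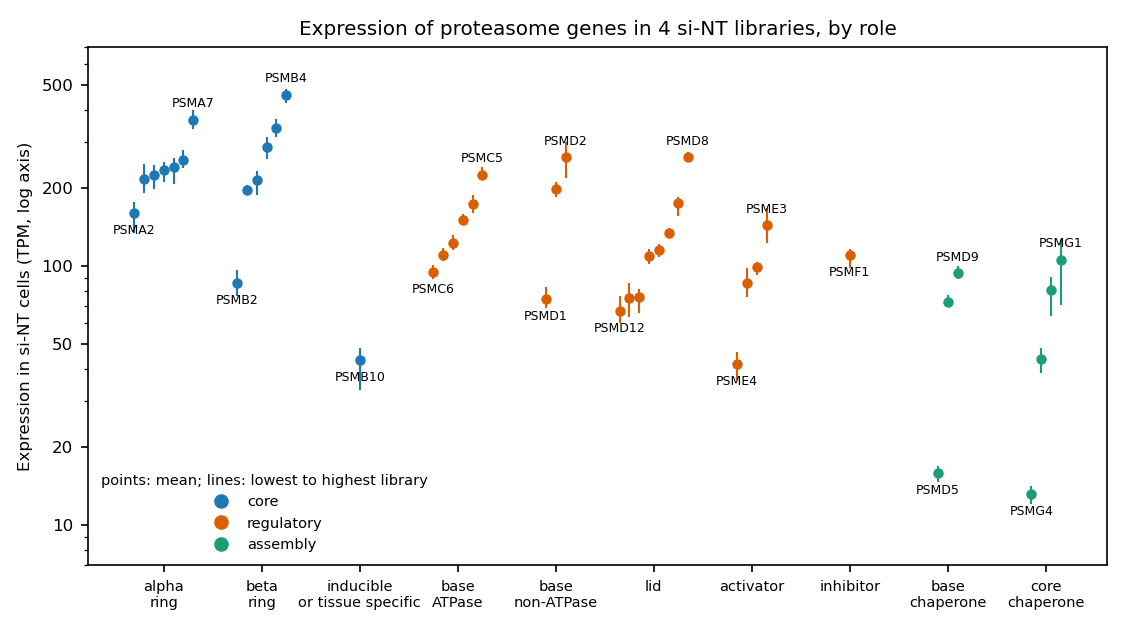
Level of each tested member in si-NT cells (TPM, log axis) by role, where a point is the mean of the 4 si-NT libraries and a line runs from the lowest to the highest library. Core genes lie mostly above regulatory and assembly genes, from PSMB4 at 457 TPM down to PSMG4 at 13.2 TPM.

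At 72 h after BRG1 depletion, 0 of the 43 members passed limma's test in either direction, where 0.557% of all 16337 genes tested were called lower and 1.13% higher at an adjusted p under 0.05. At an unadjusted p under 0.05, 1 member (2.33%) was lower, PSME1, and 0 were higher, beside 4.63% and 9.68% of all genes. At 144 h, 3 of the 43 members (6.98%) fell, namely the chaperone genes PSMG1 and PSMG4 and the lid gene PSMD12, and 0 rose, where 10.8% of all genes were called lower and 13.6% higher. At 144 h the share of members called was smaller than the share of all genes in each direction, and this difference was not tested. At 72 h so few of all genes were called that 0 of 43 members shows no difference from them. At 144 h, 5 members (11.6%) were lower and 2 (4.65%) higher at an unadjusted p under 0.05, beside 16.6% and 20.2% of all genes. The calls at 144 h were 0 of 14 core, 1 of 22 regulatory and 2 of 7 assembly genes. In bulk RNA, fewer cells that express a gene and less RNA per cell cannot be told apart.

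The fold changes of most members were small and well bounded. The 95% interval of the log2 fold change lay within ±0.5 for 38 of 43 members at 72 h and for 34 of 43 at 144 h, and within ±1 for 43 and 42. The median log2 fold change of the members was 0.02 at 72 h and -0.10 at 144 h, beside 0.06 and 0.03 for all genes tested. At 144 h the medians were -0.12 for core, -0.07 for regulatory and -0.14 for assembly genes (-0.44 for those with PSMG symbols alone), and at 72 h -0.01, 0.04 and -0.06. At 144 h, 33 of the 43 log2 fold changes were negative (76.7%, against 47.3% of all genes). All 4 depleted libraries lay below both si-NT libraries in 11 members at 144 h, where 22.5% of all genes did so, and above them in 2 members, where 26.1% did. At 72 h these counts were 2 members below, beside 6.93% of all genes, and 3 members above, beside 16.3%. Scaled to the ERCC spike-ins instead, the median over all genes became -0.11 for 72 h and -0.31 for 144 h. The core, regulatory and assembly medians at 144 h were then -0.52, -0.47 and -0.54. The spike-in share itself varied within groups. It was 0.805 and 1.34% of TPM in the si-NT libraries of 144 h, and 1.04 to 1.97% in the depleted ones. The class medians also rested on single control libraries. Without si-NT replicate 1 of 144 h they were -0.18, -0.14 and -0.21 at 144 h, and without replicate 2 they were -0.04, -0.02 and -0.08. At 72 h the core median was 0.12 without si-NT replicate 1 of 72 h, and the regulatory median was -0.01 without replicate 2.

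**Figure D2:**
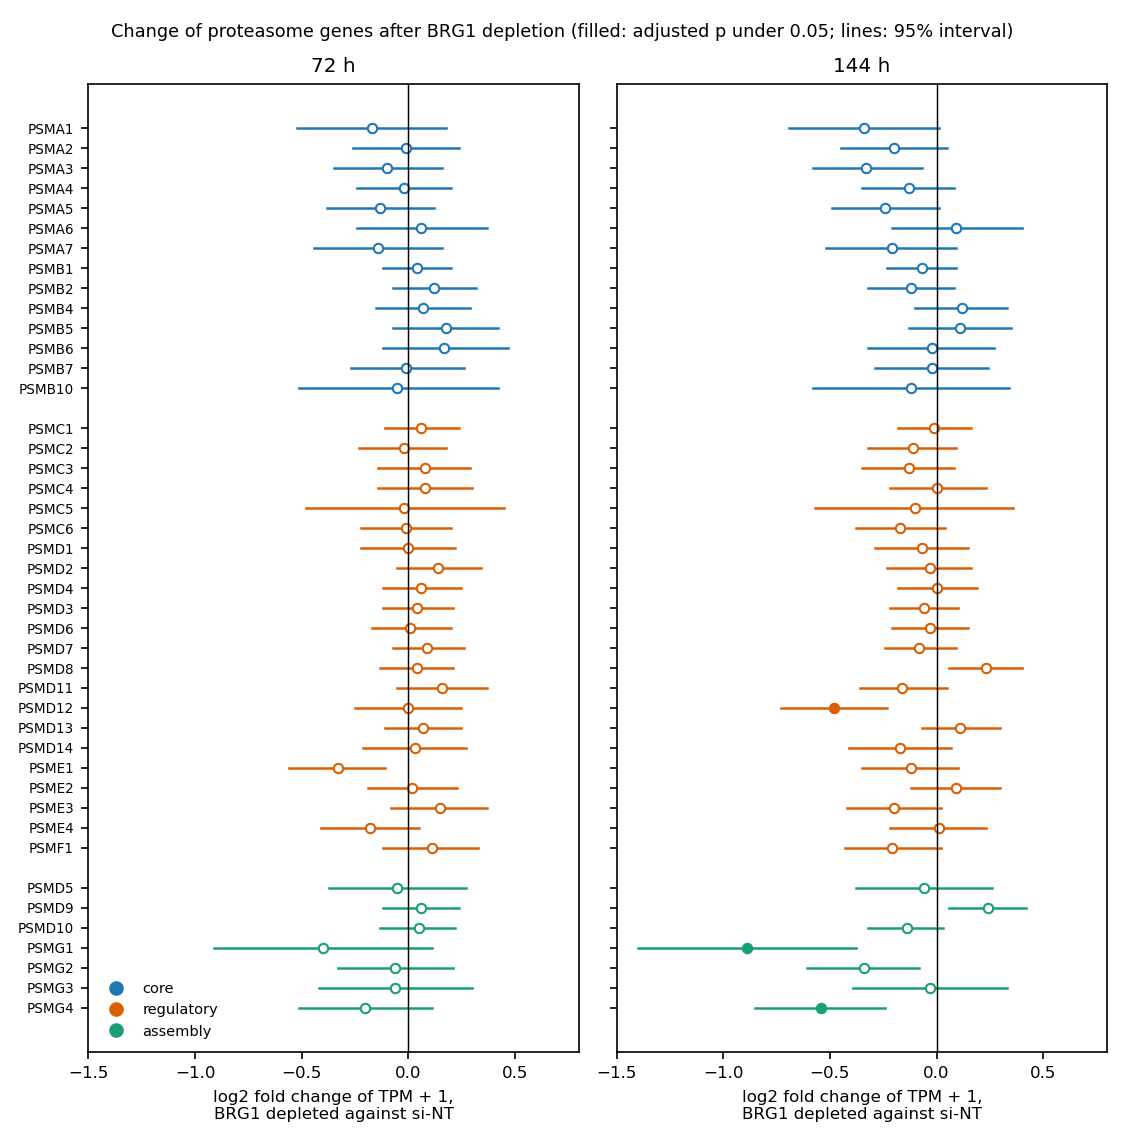
Log2 fold change of TPM + 1 after BRG1 depletion against si-NT for the 43 tested members at 72 h and 144 h, with the 95% interval as a line and a filled point at an adjusted p under 0.05. No point is filled at 72 h, and 3 are filled at 144 h, PSMG1 at -0.89, PSMG4 at -0.54 and PSMD12 at -0.48.

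The 250 bases before the RefSeq start sites of PSMG1, PSMG4 and PSMD12 are shown because these members fell at 144 h. They are chr21:39183452-39183701 (minus strand), chr6:3258697-3258946 (plus strand) and chr17:67366578-67366827 (minus strand) in GRCh38.p14, and this build differs from that of the table. Capitals mark matches on either strand to TGACNNNGC (the core of the antioxidant response element, which NFE2L1 heterodimers bind), CCAAT, or CCGGAA (the ETS core).
PSMG1: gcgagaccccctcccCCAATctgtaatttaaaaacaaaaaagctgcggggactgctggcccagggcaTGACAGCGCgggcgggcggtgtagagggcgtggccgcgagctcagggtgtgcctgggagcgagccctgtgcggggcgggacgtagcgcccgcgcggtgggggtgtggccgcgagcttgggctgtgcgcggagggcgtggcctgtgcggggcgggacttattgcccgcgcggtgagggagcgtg
PSMG4: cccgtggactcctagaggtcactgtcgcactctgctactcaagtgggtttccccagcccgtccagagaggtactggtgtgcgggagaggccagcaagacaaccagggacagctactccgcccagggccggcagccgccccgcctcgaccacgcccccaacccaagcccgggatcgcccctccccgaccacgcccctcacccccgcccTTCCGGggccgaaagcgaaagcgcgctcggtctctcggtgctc
PSMD12: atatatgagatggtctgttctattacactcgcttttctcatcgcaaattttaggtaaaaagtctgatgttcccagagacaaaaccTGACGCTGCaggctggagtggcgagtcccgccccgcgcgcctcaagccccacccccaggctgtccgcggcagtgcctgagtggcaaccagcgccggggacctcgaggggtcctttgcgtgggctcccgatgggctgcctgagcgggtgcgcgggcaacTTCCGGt
In these runs, PSMG1 held CCAAT 235 and TGACNNNGC 183 bases before the start. PSMG4 held CCGGAA 43 bases before it, and PSMD12 held TGACNNNGC 165 and CCGGAA 7 bases before it, both CCGGAA matches lying on the reverse strand. RefSeq promoters of 300 bases (250 before and 50 after the start) were found for 39 of 45 members, 47 sequences in all since some genes have several start sites. TGACNNNGC was in 13 of the 47 sequences (27.7%) and in 13.3% of all 35116 promoters, CCAAT in 18 (38.3%) and 34.6%, and CCGGAA in 22 (46.8%) and 17.2%. These matches describe letters in the sequence and were not tested against any change.

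Among the chaperones of core assembly, PSMG1 (ENSG00000183527.7, GRCh37 chr21:40546695-40555414, minus strand), which pairs with PSMG2 to build the alpha ring, showed the largest change of any member. The si-NT libraries at 144 h were at 109 and 126 TPM and the depleted libraries at 59.2, 63.6, 61.7 and 65.8 TPM. The 4 depleted libraries lay close together and far below both controls, with a mean of 62.6 ± 2.78 TPM (SD, n = 4) against 117 ± 12.1 TPM (SD, n = 2). The log2 fold change was -0.89 (SE 0.23, adjusted p = 0.018), with a 95% interval of -1.40 to -0.38. At 72 h the si-NT libraries themselves differed, at 116 and 71.3 TPM, and the depleted libraries at 71.5, 45.4, 79.99 and 85.9 TPM overlapped with them (log2 fold change -0.40, SE 0.23, adjusted p = 0.476). The change at 144 h minus that at 72 h was -0.49 (adjusted p = 0.573), so the time points were not shown to differ. The call at 144 h was lost when si-NT replicate 1 of 144 h was left out (log2 fold change -1, adjusted p = 0.0669) and when replicate 2 was left out (-0.79, adjusted p = 0.154), each of which leaves 1 control library assumed to vary like the other groups.

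PSMG2, the partner of PSMG1, was lower than both controls in all 4 depleted libraries at 144 h, at 37.8, 37.1, 35.8 and 35.4 TPM against 45.5 and 47.8 TPM, but missed the threshold (log2 fold change -0.34, SE 0.12, adjusted p = 0.0619). PSMG4 (ENSG00000180822.7, GRCh37 chr6:3231637-3303607, plus strand), which pairs with PSMG3 in the other chaperone of the alpha ring, fell at 144 h from 14.03 and 13.4 TPM with si-NT to 9.09, 9.07, 10.9 and 7.59 TPM after depletion, without overlap. Its log2 fold change was -0.54 (SE 0.14, adjusted p = 0.0166), from a mean of 13.7 ± 0.431 TPM (SD, n = 2) down to 9.16 ± 1.35 TPM (SD, n = 4). Earlier, at 72 h, it stood at 12.96 and 12.2 TPM with si-NT and 9.82, 10.97, 12.9 and 9.88 TPM after depletion, and the groups overlapped (log2 fold change -0.20, SE 0.14, adjusted p = 0.576). The call at 144 h was lost without si-NT replicate 1 of 144 h (-0.51, adjusted p = 0.113), without replicate 2 (-0.57, adjusted p = 0.0997), under ERCC scaling (-0.91, adjusted p = 0.106) and with siRNA 3 alone (-0.54, adjusted p = 0.0514). TUBB2B and SLC22A23 overlap PSMG4 on the opposite strand in the annotation used here, and the strand setting of the counting is not given in the sources used here. PSMG3 did not follow PSMG4, with a log2 fold change of -0.03 (SE 0.17, adjusted p = 0.918) at 144 h and depleted libraries at 67.6, 81.8, 83.9 and 97.1 TPM on either side of the controls.

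The chaperones of base assembly showed no call. PSMD9 was higher than both controls in all 4 depleted libraries at 144 h, at 113, 121, 109.7 and 113 TPM against 94.1 and 99.00 TPM, and just missed the threshold (log2 fold change 0.24, SE 0.08, adjusted p = 0.0512). PSMD10, also known as the oncoprotein gankyrin, was at 67.2, 62.5, 67.8 and 66.2 TPM against 69.8 and 76.3 TPM, lower without overlap but by a log2 fold change of -0.14 (SE 0.08, adjusted p = 0.209). PSMD5 was at 16.9, 16.5, 14.6 and 11.7 TPM against 14.8 and 16.1 TPM, and its groups overlapped. The medians at 144 h were -0.44 over the 4 core chaperones and -0.06 over the 3 base chaperones.

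In the lid, PSMD12, the third gene whose promoter is shown (ENSG00000197170.5, GRCh37 chr17:65334032-65362721, minus strand), a scaffold subunit, was the only regulatory gene called. It stood at 64.5 and 60.7 TPM with si-NT and 60.2, 59.4, 66.3 and 64.3 TPM after depletion at 72 h, when the groups overlapped and the log2 fold change was -0.0016 (SE 0.11, adjusted p = 0.998). At 144 h it was at 65.6 and 75.9 TPM with si-NT and 56.00, 49.5, 54.4 and 42.7 TPM after depletion, without overlap, and fell by 0.48 on the log2 scale (SE 0.11, adjusted p = 0.0111). At 144 h its mean was 70.7 ± 7.33 TPM (SD, n = 2) with si-NT, against 50.6 ± 5.96 TPM (SD, n = 4) with depletion. The change at 144 h minus that at 72 h was -0.48, with an unadjusted p of 0.012 and an adjusted p of 0.316 in limma's test. Without si-NT replicate 2 of 144 h the log2 fold change was -0.37 and the call was lost (adjusted p = 0.152), and under ERCC scaling it was -0.87 (adjusted p = 0.109).

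PSMD14, the lid enzyme that removes ubiquitin from substrates, was at 81.2 and 63.9 TPM with si-NT and 75.5, 68.1, 73.3 and 77.8 TPM after depletion at 72 h. The values at 144 h were 71.7 and 85.1 TPM with si-NT and 67.5, 66.3, 70.9 and 72.5 TPM after depletion, and the log2 fold changes of 0.03 and -0.17 were not called (adjusted p = 0.936 and 0.283). PSMD8, another lid subunit, was the only lid gene above both controls in all 4 depleted libraries at 144 h, at 291, 338, 287 and 295 TPM against 256 and 258 TPM (log2 fold change 0.23, SE 0.08, adjusted p = 0.0541). The other 5 lid genes, PSMD3, PSMD6, PSMD7, PSMD11 and PSMD13, had log2 fold changes of -0.16 to 0.11 at 144 h, and PSMD11 was the only one of them with every depleted library below both controls.

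In the base, the ubiquitin receptor PSMD4 was at 203 and 186 TPM with si-NT and 194, 193, 209.7 and 216 TPM after depletion at 72 h, and at 193 and 209 TPM with si-NT and 190.1, 195, 202 and 218 TPM after depletion at 144 h. Its groups overlapped at both times, and the 95% interval at 144 h ran from -0.18 to 0.19. The ATPase PSMC2 was at 124 and 116 TPM with si-NT and 123, 103, 123 and 126 TPM after depletion at 72 h. The values at 144 h were 119.99 and 130.2 TPM with si-NT and 118, 109, 116 and 118 TPM after depletion, lower without overlap but by a log2 fold change of only -0.11 (SE 0.09, adjusted p = 0.411). The 6 ATPase genes had log2 fold changes of -0.17 to 0.0041 at 144 h and of -0.02 to 0.08 at 72 h. The scaffold subunits PSMD1 and PSMD2 stood at log2 fold changes of -0.07 and -0.03 at 144 h (adjusted p = 0.658 and 0.821).

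None of the 14 core genes tested was called at either time. The beta ring subunits that hold the proteolytic sites were measured with overlap between the groups throughout. PSMB5, the chymotrypsin-like subunit and the main target of bortezomib, was at 228 and 189 TPM with si-NT and 244, 216, 229 and 252 TPM after depletion at 72 h, and at 215 and 229.8 TPM with si-NT and 219, 239.7, 229 and 275 TPM after depletion at 144 h (log2 fold change 0.11, SE 0.11, adjusted p = 0.517). PSMB6, the caspase-like subunit, was at 302 and 261 TPM with si-NT and 340.1, 256, 320.1 and 361 TPM after depletion at 72 h, and at 273 and 313 TPM with si-NT and 269.8, 278, 281 and 324 TPM after depletion at 144 h. The interval of its log2 fold change at 144 h was -0.32 to 0.27. PSMB7, the trypsin-like subunit, was at 193 and 201 TPM with si-NT and 196, 164, 208 and 219 TPM after depletion at 72 h, and at 190.1 and 203 TPM with si-NT and 192, 175, 187 and 224 TPM after depletion at 144 h, with an interval of -0.29 to 0.24 at 144 h.

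PSMB4, the highest member, stood at 473 and 446 TPM with si-NT and 480.3, 427, 505 and 524 TPM after depletion at 72 h, and at 431 and 478 TPM with si-NT and 464, 481, 483 and 546 TPM after depletion at 144 h, where the groups overlapped. PSMB10 was not called either, at log2 fold changes of -0.05 and -0.12 (adjusted p = 0.952 and 0.723), with intervals that reached -0.58. The alpha ring genes had the more negative values, with a median of -0.21 at 144 h beside -0.02 for the beta ring. In 4 of the 7 alpha ring genes, PSMA1, PSMA3, PSMA4 and PSMA5, every depleted library at 144 h lay below both controls, as in 22.5% of all genes. The nearest to a call was PSMA3, at 186, 173, 178 and 179 TPM against 205 and 245 TPM (log2 fold change -0.33, SE 0.12, adjusted p = 0.0622), and PSMA6 was on the other side at 0.09 (adjusted p = 0.68). The difference between the rings was not tested.

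The activators are alternative caps that open the core without ATP. PSME1, which forms an interferon-inducible cap with PSME2, gave the clearest difference of any member at 72 h, at 92.9 and 100.4 TPM with si-NT and 77.8, 85.5, 75.99 and 67.3 TPM after depletion, without overlap (log2 fold change -0.33, SE 0.10, adjusted p = 0.147). At 144 h its groups overlapped, at 101 and 103 TPM with si-NT and 96.7, 101, 90.9 and 85.9 TPM after depletion. PSME2 itself had log2 fold changes of 0.02 and 0.09 at the respective times (adjusted p = 0.952 and 0.55).

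PSME3, which encodes a nuclear activator, was at 141 and 124 TPM with si-NT and 147, 143, 146 and 151 TPM after depletion at 72 h, when all 4 depleted libraries lay above both controls. At 144 h it was at 144 and 165 TPM with si-NT and 136, 138, 146 and 116 TPM after depletion with overlap, and neither log2 fold change, 0.15 or -0.20, was called (adjusted p = 0.569 and 0.173). PSME4, an activator known for its part in histone degradation, was at 42.6 and 41.5 TPM with si-NT and 38.1, 37.5, 35.7 and 36.7 TPM after depletion at 72 h, below both controls throughout, and at 36.7 and 46.1 TPM with si-NT and 41.6, 37.3, 41.6 and 45.2 TPM after depletion at 144 h with overlap. The inhibitor PSMF1 was at 98.9 and 111 TPM with si-NT and 115, 115, 115 and 107 TPM after depletion at 72 h, and at 114 and 115 TPM with si-NT and 101, 115, 88.2 and 94.02 TPM after depletion at 144 h (log2 fold change -0.21, SE 0.10, adjusted p = 0.165).

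Single members were also compared with the 4 control libraries pooled over time by exact two-sided permutation tests, whose smallest possible p is 0.0286. PSMD7 and PSME1 reached it at 72 h. At 144 h, 9 members did, PSMG1, PSMG2, PSMG4, PSMD12, PSMA3, PSMA5 and PSMD10 with lower values and PSMD8 and PSMD9 with higher values after depletion. The share of all genes that reach it was not computed, so these counts are not a result about the members. Over the 90 such exact tests the adjusted p of the members at this smallest p was 0.234. Most of the 90 tests would have to reach the smallest p for an adjusted p under 0.05. No conclusion is therefore drawn from the adjusted value. Between time points, the change of 0 of 43 members differed at an adjusted p under 0.05 (0.0184% of all genes did), and 3 (6.98%) differed at an unadjusted p under 0.05, PSMD12, PSME3 and PSMD11, beside 11.9% of all genes. In si-NT cells, 0 members and 0 of all genes were called between 144 h and 72 h, and 1 member, PSMD2 (2.33%), was past an unadjusted p of 0.05, beside 4.11% of all genes.

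The siRNAs against SMARCA4 gave different levels of PSMC5, an ATPase of the base, on opposite sides of si-NT. At 72 h PSMC5 was at 221 and 221 TPM with si-NT, at 181 and 182 TPM with siRNA 2 and at 250.03 and 277 TPM with siRNA 3. By 144 h it was at 216 and 239 TPM with si-NT, at 166 and 184 TPM with siRNA 2 and at 244 and 269 TPM with siRNA 3. The 3 sets of libraries did not overlap at either time. The siRNA 3 minus siRNA 2 difference was 0.53 at 72 h (adjusted p = 0.111) and 0.55 at 144 h (adjusted p = 0.0608), and its mean over both times was 0.54 (adjusted p = 0.00665). The mean of both siRNAs, with a log2 fold change of -0.10 (SE 0.21, adjusted p = 0.76) at 144 h, therefore describes neither. FTSJ3 overlaps PSMC5 on the opposite strand of GRCh37, and its part in these values was not tested.

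PSMA1 also differed between the siRNAs, with 173 to 183 TPM for siRNA 2 and 233 to 238 TPM for siRNA 3 at 72 h beside 249 and 213 TPM with si-NT. By 144 h it was at 160.5 and 168 TPM with siRNA 2 and at 211 and 218 TPM with siRNA 3, beside 238 and 237 TPM with si-NT. The mean difference of siRNA 3 minus siRNA 2 was 0.39 (adjusted p = 0.0232). PSMC5 and PSMA1 were the 2 members called in the mean over both times, beside 1.55% of all genes, and 0 members were called at 72 h alone (0.141% of all genes) or at 144 h alone (0.331%), with 6 (14%) at an unadjusted p under 0.05 at each time, beside 8.33% of all genes at 72 h and 13.3% at 144 h. PSMG1 at 144 h had similar values with either siRNA, with log2 fold changes of -0.92 for siRNA 2 and -0.86 for siRNA 3, as did PSMG4 (-0.55 and -0.54) and PSMD12 (-0.42 and -0.54).

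**Figure D3:**
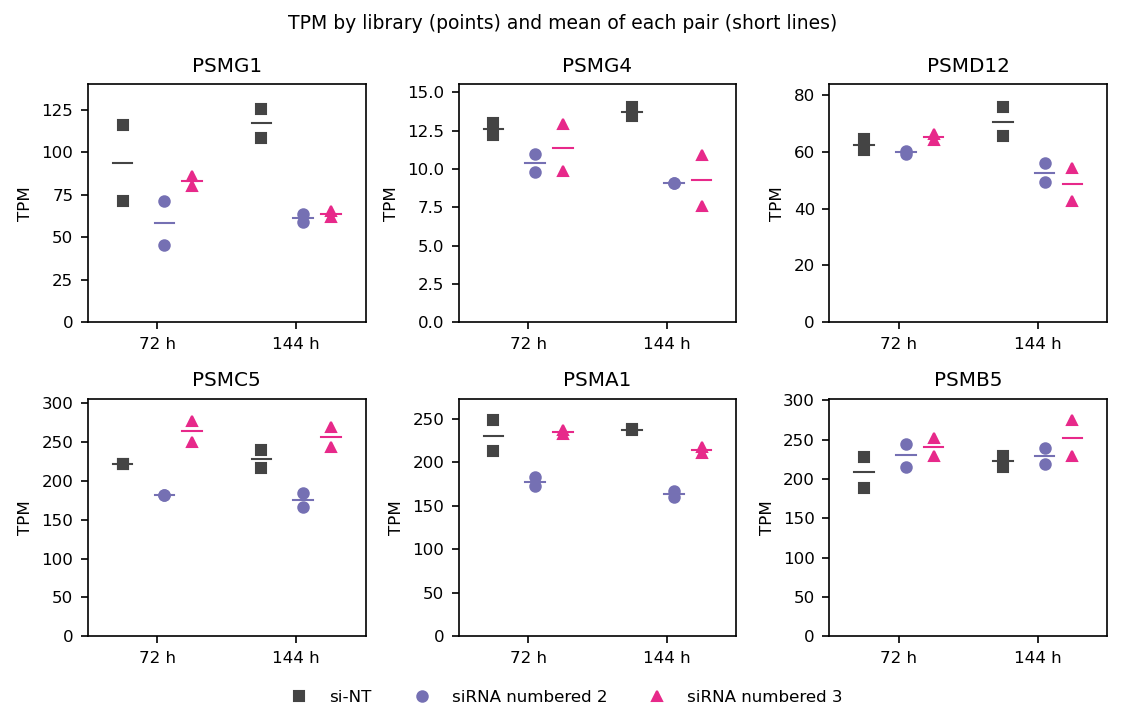
TPM of PSMG1, PSMG4, PSMD12, PSMC5, PSMA1 and PSMB5 in each of the 12 libraries by time and siRNA, where each point is a library and each short line the mean of a pair. PSMG1 sits at 59.2 to 65.8 TPM in all 4 depleted libraries at 144 h, below both si-NT libraries, and PSMC5 lies below si-NT with siRNA 2 and above it with siRNA 3.

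Proteasome genes moved together between the si-NT replicate libraries of each time point. In si-NT cells at 72 h, replicate 2 was below replicate 1 in 35 of 43 members (81.4%, against 46.9% of all genes), with a median log2 difference of -0.14. At 144 h, replicate 2 was above replicate 1 in 40 of 43 members (93%, against 46.5% of all genes), with a median of 0.12. These differences between si-NT replicates were as large as the median of -0.10 for the members at 144 h. The 33 negative log2 fold changes at 144 h are therefore not 33 independent measurements. Replicate pairs of depleted libraries were not counted in this way. The library of siRNA 2 replicate 2 at 72 h held the lowest sum over the members, 5977 TPM, and the lowest value of PSMG1. Without it, 6 members were called lower at 144 h, PSMA3, PSMA5 and PSMG2 beside PSMG1, PSMG4 and PSMD12, and PSMD9 was called higher. The log2 fold changes at 144 h do not use this library. It enters those tests only through the estimate of spread that the 4 groups share. Why its values were low was not tested. Without si-NT replicate 2 of 144 h, which leaves 1 control library, the log2 fold changes of PSMG1, PSMG4 and PSMD12 were -0.79, -0.57 and -0.37, and their calls were lost. The share of all genes called with a library left out was not counted, so such counts are not a result about the members.

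**Figure D4:**
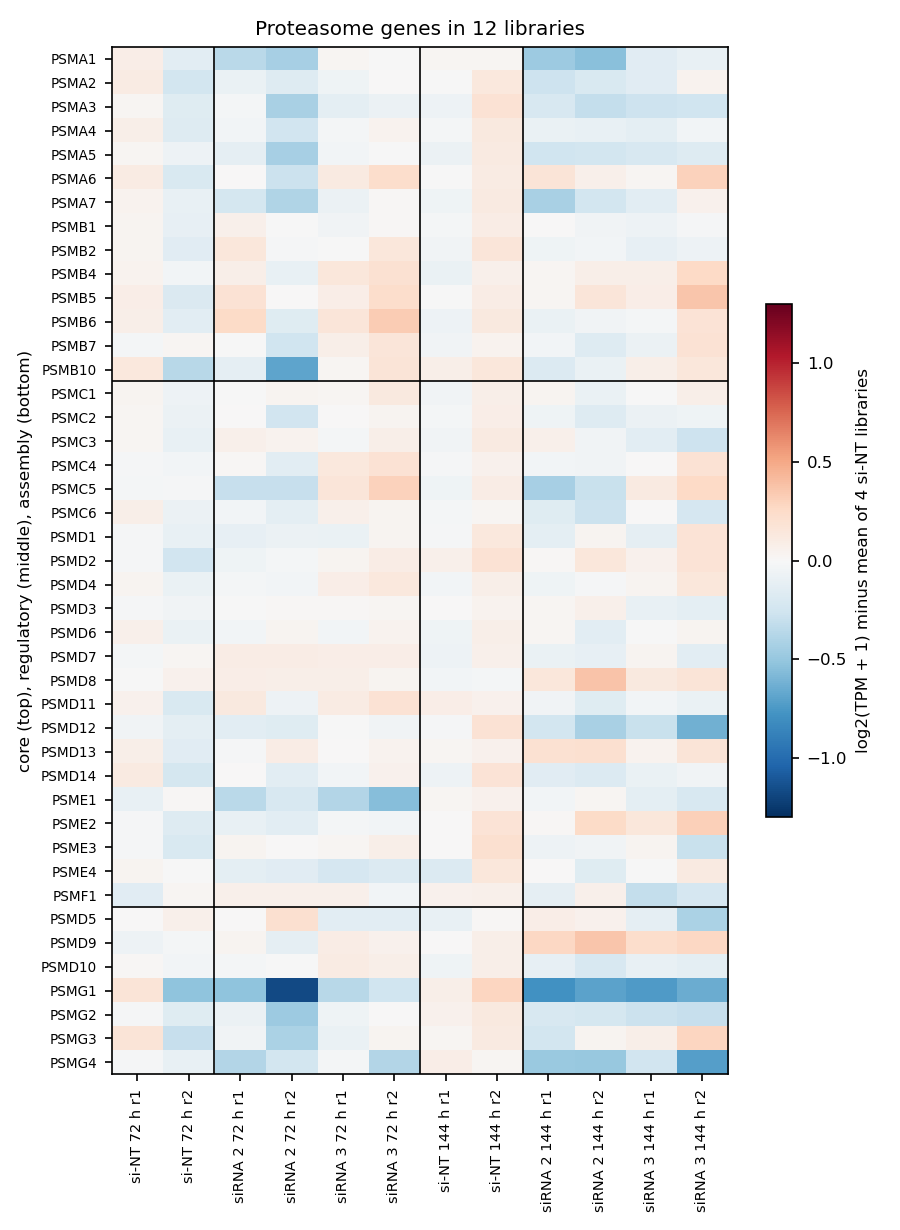
Log2(TPM + 1) of the 43 tested members in each library minus the mean of the 4 si-NT libraries, with core genes at the top, regulatory genes in the middle and assembly genes at the bottom, and black lines between groups. PSMG1, PSMG4 and PSMD12 are blue (lower) in all 4 depleted libraries at 144 h, PSMC5 changes colour between the siRNAs, and most genes of si-NT replicate 2 are blue at 72 h and red (higher) at 144 h.

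The 30 other genes of the pathway were counted in the same fit. At 72 h 0 of 30 were called. At 144 h 3 of 30 fell (10%, beside 10.8% of all genes) and 2 of 30 rose (beside 13.6% of all genes). UCHL5, a deubiquitinase that binds the base, fell, with a mean of 69.6 ± 14.3 TPM (SD, n = 2) in control cells and 34.4 ± 4.91 TPM (SD, n = 4) after depletion (log2 fold change -0.99, SE 0.25, adjusted p = 0.0142). IPO9, an importin that carries proteasomes into the nucleus, fell by 0.38 (SE 0.10, adjusted p = 0.0195) on the log2 scale. UBA1, the main enzyme that activates ubiquitin, rose (log2 fold change 0.29, SE 0.09, adjusted p = 0.0302), as did ZFAND2A, a stress-induced proteasome-associated protein (log2 fold change 0.58, SE 0.17, adjusted p = 0.0304). For ZFAND2A the si-NT libraries were at 18.05 and 17.84 TPM at 144 h but at 18.95 and 29.51 TPM at 72 h. Its depleted libraries of 144 h, at 26.16, 26.26, 23.93 and 34.14 TPM, overlapped with si-NT of 72 h. NFE2L1, the activator of the subunit genes named above, was at a log2 fold change of 0.11 (SE 0.16, adjusted p = 0.655), and POMP, the maturation factor of the core, at 0.07 (SE 0.13, adjusted p = 0.746).

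PSMC3IP, a meiotic recombination factor, was at 24.6 and 28.6 TPM with si-NT and at 13.3, 18.5, 16.7 and 13.1 TPM after depletion at 144 h, without overlap, and fell (log2 fold change -0.76, SE 0.24, adjusted p = 0.0383). This call was lost without either si-NT replicate of 144 h (-0.87, adjusted p = 0.109, and -0.66, adjusted p = 0.241), and with siRNA 2 alone (-0.72, adjusted p = 0.113) or siRNA 3 alone (-0.80, adjusted p = 0.0872). It was also lost without siRNA 3 replicate 2 of 72 h (adjusted p = 0.0505), siRNA 2 replicate 1 of 144 h (adjusted p = 0.0803) or siRNA 3 replicate 2 of 144 h (adjusted p = 0.0768), under ERCC scaling (-1.14, adjusted p = 0.0711) and with no filter on low values (-0.76, adjusted p = 0.0912). PSME3IP1, which encodes a partner of PSME3, was at 78.5 and 78.96 TPM with si-NT and 73.96, 75.9, 76.4 and 71.2 TPM after depletion at 144 h, with a log2 fold change of -0.08 (SE 0.09, adjusted p = 0.534).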

How the data were processed

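Poly(A) RNA with ERCC spike-ins was sequenced from 12 LNCaP libraries with a stranded kit. As the study's methods and the submitters' processing notes describe, the authors trimmed reads (Trim Galore 0.11.2, FastQC), aligned them to hg19 (GRCh37) with STAR 2.4.0j, counted genes with featureCounts, normalised with the ERCC spike-ins and deposited TPM on GENCODE genes. The tool that made TPM is not given in the sources used here. With the spike-ins included, the deposited values sum to 999999 to 1000001 TPM per library, so they are scaled to the library total. The deposited TPM table has 63660 lines, 92 of them spike-ins, and 0 columns of values were left unmatched. Because TPM values hold no depth, tests were run on log values and not on counts.

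Symbols came from GENCODE release 44 lifted to GRCh37 (87.6% of genes). Values were analysed as log2(TPM + 1), a pseudocount of 1, so changes of low genes are understated. Genes reaching 1 TPM in 2 or more libraries (16337) were fitted in 4 groups with limma (lmFit, eBayes with trend). Adjusted p-values, unless called exact, come from limma after Benjamini-Hochberg adjustment over these genes, and calls use 0.05. The siRNAs were compared in a fit with 6 groups. Exact permutation tests were two-sided. The procedure was tested on simulated data. Fits used limma 3.58.1 in R 4.3.3. Tables were handled with pandas 2.3.3 and NumPy 2.4.6 in Python 3.11.15, exact tests with SciPy 1.17.1 and plots with matplotlib 3.10.9.

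The members, classes and pathway list were chosen with earlier results of these data known. Values in every library were given for members called, for catalytic, ATPase, receptor, deubiquitinase, activator and inhibitor genes chosen by role, and for the highest and lowest member. Others named with their values (PSMG2, PSMG3, PSMD5, PSMD8, PSMD9, PSMD10, PSMA1, PSMA3, PSMC5 and PSME1) were chosen after their values were seen. Of the pathway list, 1 called gene is not reported here, and NFE2L1 and POMP are the only uncalled genes given values. Sequences were RefSeq's. Alternatives covered scaling, pseudocount, filters, samples fitted, the siRNA and each library left out. The comparisons of the siRNAs with each other were added after seeing the data.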

Additional observations from a re-analysis of the deposited data

Results flagged for a closer look

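In PSMC2, an ATPase of the base, 1 of the 4 depleted libraries at 72 h (siRNA 2 replicate 2) stood apart from the others at 102.78 TPM, and in PSMF1, the inhibitor, siRNA 3 replicate 2 at 72 h did so at 107.29 TPM. The gap to the nearest library was 0.862 and 0.953 of the range. Of 28 groups of 4 libraries examined, chance marks about 1 in 20.

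The siRNAs differed in PSMC5, where siRNA 3 minus siRNA 2 was 0.53 on the log2 scale at 72 h, 0.55 at 144 h and 0.54 in the mean of both times, and in PSMA1, where the mean was 0.39. In limma's test the adjusted p was 0.00665 for the mean in PSMC5 and 0.0232 in PSMA1. Both libraries of each siRNA lay on opposite sides of both si-NT libraries in PSMC5 at both times. In PSMD5, a chaperone of the base, they did so at 144 h, with siRNA 3 minus siRNA 2 at -0.33. The PSMD5 difference was not called in the mean of both times in limma's test (adjusted p = 0.146). The share of all genes with siRNAs on opposite sides was not counted, so these flags are not a result about the members.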

How the results depend on the processing

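Of 954 values recomputed for 66 results under 27 settings, 861 were labelled unchanged. For single members this meant the same direction and side of the threshold. For counts it meant an equal or similar count. For class medians it meant a shift smaller than the spread between libraries of a group, with the sign not checked. Log2 fold changes under ERCC scaling relative to the median of all genes received the label without a comparison, so 861 overstates what was checked. Only single members could be labelled reversed, and the 49 reversals were not called under the setting. Class medians at 72 h also changed sign under some settings. With siRNA 3 alone, the core median went from -0.01 to 0.09 and the assembly median from -0.06 to 0.04. With the replicate block, the count of members lower at 144 h was 3, and all other counts and class medians also kept their side. Replicate numbers were only shared, since deviations of same-numbered libraries correlated between -0.23 and 0.30 over 15 pairs.

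Counts of called members moved as follows. The count lower at 72 h was 1 with median-of-ratios scaling and with si-NT of both time points combined (PSME1 in each). The count higher at 144 h was 2 with si-NT combined and with siRNA 2 alone (PSMD8 and PSMD9 in each), and 0 to 1 with 1 library left out. The count lower at 144 h was 1 under ERCC scaling (PSMG1), 5 with only the libraries of the time point, 6 with siRNA 2 alone, 0 at an adjusted p under 0.01, 0 with a log2 fold change beyond 1.5, and 0 to 6 with 1 library left out. Without si-NT replicate 1 of 144 h the calls of PSMG1 and PSMG4 were lost but not that of PSMD12. Without replicate 2 the calls of PSMG1, PSMG4 and PSMD12 were lost. Each of these fits leaves 1 control library. The count was 6 without siRNA 2 replicate 2 of 72 h, which enters the tests at 144 h only through the shared estimate of spread. The share of all genes called was not counted under these settings, so the moves of these counts are not a result about the members.

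Class medians moved under ERCC scaling to -0.20 (core) and -0.15 (regulatory) at 72 h and to -0.52 (core), -0.47 (regulatory) and -0.54 (assembly) at 144 h. The regulatory median at 72 h was -0.03 with median-of-ratios scaling and 0.0042 with siRNA 2 alone, and the assembly median at 144 h was -0.44 with classes by the letters of the symbol. With 1 library left out, the core median at 72 h ran from -0.11 to 0.12, and the regulatory median from -0.01 to 0.08 at 72 h and from -0.14 to -0.02 at 144 h.

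Reversed log2 fold changes under ERCC scaling were, at 72 h, -0.02 (PSMB5), -0.02 (PSMB6), -0.13 (PSMD4), -0.16 (PSMD14), -0.05 (PSME3), -0.09 (PSMF1) and -0.12 (PSMB4), and at 144 h -0.29 (PSMB5), -0.40 (PSMD4), -0.39 (PSME4) and -0.29 (PSMB4). With median-of-ratios scaling they were -0.0026 (PSMD4) and -0.04 (PSMD14) at 72 h, and -0.03 (PSMD4) and -0.03 (PSME4) at 144 h. With quantile normalisation they were 0.02 (PSMB7) and -0.01 (PSMD14) at 72 h, and 0.0017 (PSMB6) and -0.03 (PSME4) at 144 h. With si-NT combined they were -0.03 (PSMD14) at 72 h, and 0.01 (PSMB6) and -0.01 (PSME4) at 144 h. With siRNA 2 alone they were -0.0042 (PSMD4), -0.01 (PSMD14) and -0.02 (PSMB4) at 72 h, and -0.06 (PSMD4) and -0.06 (PSME4) at 144 h. With siRNA 3 alone they were 0.06 (PSMD12), 0.12 (PSMB7) and 0.05 (PSMC2) at 72 h, and 0.05 (PSMB6) and 0.06 (PSMB7) at 144 h. With 1 library left out, reversals ranged at 72 h from -0.06 to 0.08 (PSMB7), -0.07 to 0.04 (PSMC2), -0.70 to 0.18 (PSMC3IP), -0.04 to 0.04 (PSMD12) and -0.14 to 0.20 (PSMD14), and at 144 h from -0.12 to 0.08 (PSMB6), -0.09 to 0.03 (PSMB7), -0.05 to 0.06 (PSMD4) and -0.16 to 0.17 (PSME4).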
